A study of Mus musculus with 3 samples.

Results

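The 9 genes described here were the CCN family members Ccn1, Ccn2, Ccn3, Ccn4 and Ccn5 and the YAP pathway genes Yap1, Wwtr1, Amotl2 and Ankrd1, of 32285 genes in the deposited matrices. They were chosen by symbol, and all 9 were present in all 3 libraries. The cells came from the synovium and the infrapatellar fat pad of mouse knees and were counted with droplet-based 10x Genomics 3′ chemistry, for an atlas of the cells of the joint lining during osteoarthritis. One library (n = 1 per group) came from wild-type control mice harvested at 2 months of age. The other two came from wild-type mice operated at 2 months of age by destabilisation of the medial meniscus (DMM), a surgical model of osteoarthritis, and harvested 1 week or 2 months later, so the 2-month group was also older. Tissue of 5 to 10 mice went into each pool and was digested with trypsin and then collagenase and sorted for live cells. The sources used here state neither a sham operation for the controls nor the sex of the mice.

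CCN proteins are secreted matricellular proteins: they sit in the matrix, bind integrins and proteoglycans, and modulate growth factor signalling rather than build the matrix itself. YAP (from Yap1) and its relative TAZ (from Wwtr1) are coactivators that enter the nucleus when the Hippo kinases are inactive, as in spread cells on stiff matrix, and bind TEAD transcription factors at target genes. Ccn1, Ccn2, Ankrd1 and Amotl2 are widely used readouts of that activity, and they answer to other inputs too. In the joint, CCN2 is known from cartilage and from fibrosis of the synovium, and CCN4 from inflamed and osteoarthritic synovium.

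Promoter sequences (RefSeq, build GRCm38.p6, 250 bases before to 50 after the start) were matched for 5 of the 9 genes, namely Ccn1, Ankrd1, Amotl2, Yap1 and Wwtr1. Those of Ccn1, Ankrd1 and Amotl2 are shown because these genes serve as YAP readouts and differed from one another in the data. Capitals mark the core TEAD motif GGAATG, or CATTCC where it lies on the other strand, and each sequence runs along its gene's strand.
Ccn1, chr3:145649936-145650235, minus strand: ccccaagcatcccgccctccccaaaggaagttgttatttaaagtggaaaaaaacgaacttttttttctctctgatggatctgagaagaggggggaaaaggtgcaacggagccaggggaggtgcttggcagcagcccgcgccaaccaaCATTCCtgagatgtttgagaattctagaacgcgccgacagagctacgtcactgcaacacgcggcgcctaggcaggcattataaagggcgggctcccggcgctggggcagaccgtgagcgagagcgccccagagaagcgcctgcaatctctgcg
Ankrd1, chr19:36119795-36120094, minus strand: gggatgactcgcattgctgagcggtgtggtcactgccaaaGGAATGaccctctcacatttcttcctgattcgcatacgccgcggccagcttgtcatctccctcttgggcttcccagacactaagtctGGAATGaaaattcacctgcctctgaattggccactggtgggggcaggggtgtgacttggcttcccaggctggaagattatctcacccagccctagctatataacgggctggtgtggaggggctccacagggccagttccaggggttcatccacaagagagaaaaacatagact
Amotl2, chr9:102717554-102717853, plus strand: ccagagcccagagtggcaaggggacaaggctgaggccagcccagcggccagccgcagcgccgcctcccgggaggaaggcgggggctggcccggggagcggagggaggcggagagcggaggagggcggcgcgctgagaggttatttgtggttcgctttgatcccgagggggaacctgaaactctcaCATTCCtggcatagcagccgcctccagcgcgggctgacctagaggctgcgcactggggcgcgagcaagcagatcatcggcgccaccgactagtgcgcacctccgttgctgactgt
In each of the 5 matched genes the window held the motif on at least 1 strand, against 14.7% of 32851 mouse promoter windows of the same length. Its first base lay 103 bases before the start in Ccn1, 65 in Amotl2, 141 in Yap1 and 136 for the more upstream of the Wwtr1 starts in the table, and Ankrd1 had matches at 210 and 123. The longer form GGAATGT, which overlaps the core motif and is held by 3.85% of windows, matched in Ccn1, Amotl2 and Yap1. The TCF/LEF motif CTTTGAT (3.73% of windows) matched in Amotl2 and Wwtr1, and TATAAA (13.6%) in Ccn1. No window of the 5 genes held the AP-1 motif TGANTCA (7.81%) or a CArG box (1.63%). Such matches describe letters in a window and not binding.

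Of 9003, 13986 and 10799 barcodes in the control, 1-week and 2-month libraries, 8099, 12316 and 9782 passed limits of 500 detected genes and of 10% of UMIs from mitochondrial genes. Their medians were 10871, 12919.5 and 13543 UMIs per cell. Between 21 and 30 kept barcodes were shared by any pair of libraries. Fibroblasts (at least 1 UMI of Pdgfra, none of Ptprc or Cdh5) numbered 3781, 4748 and 5317. Within them, cells with Clic5, a gene of the synovial lining, numbered 1650, 376 and 1786, and cells with Pi16, a gene of adventitial progenitor-like fibroblasts, numbered 665, 406 and 1376. Endothelium (Cdh5, no Ptprc) held 1270, 1784 and 1157 cells, and mural cells (Notch3, none of the other 3 gate genes), the pericytes and smooth muscle around vessels, held 694, 711 and 423. Levels are given as CPM, the gene's summed UMIs scaled to the gate's total UMIs in that library, and every interval is an exact 95% interval that covers counting error only. Each group was a single library, so differences between groups have no replicate check and no test. A gene was counted as differing when its CPM ratio was at least 2-fold, its interval excluded 1 and the 2 sums held at least 50 UMIs together.

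The fibroblast gate held its own markers in every library, with 7 fibroblast markers summing to 22147, 38872 and 20575 CPM, and immune markers at 186, 193 and 166 CPM. Its makeup differed, however. Summed lining markers were at 43609, 8915 and 45766 CPM and progenitor markers at 2483, 660 and 1810 CPM. Chondrocyte markers were at 2.76, 145 and 21.0 CPM, and 2, 2465 and 389 fibroblasts carried a UMI of the cartilage proteoglycan gene Acan. The makeup of the Pi16-positive gate differed too. Lining markers there summed to 25497, 4337 and 27430 CPM and progenitor markers to 5025, 2066 and 3658 CPM. A list of 23 genes induced by tissue dissociation summed to 17967, 10339 and 12847 CPM in fibroblasts, with 9 of 23 counted as lower and none as higher at 1 week and 1 lower at 2 months. Of all fibroblast genes, 10.6% were lower and 11.6% higher at 1 week, and 4.15% were lower at 2 months. The heat shock genes Hspa1a and Hspa1b had the lowest 1-week ratios, at 263, 55.7 and 97.9 CPM and at 100.2, 25.0 and 55.5 CPM. Endothelial markers summed to 2794, 3216 and 3685 CPM in endothelium and to 13.0 to 24.0 CPM in fibroblasts, where Cdh5 was at 0 by the gate. Schwann cell, skeletal muscle and adipocyte markers each summed to at most 6.09 CPM. The part of these shifts in the values below was not tested except where a value within a subset or bin is given.

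In fibroblasts, 3 of the 8 members with enough UMIs were counted as lower at 1 week and 2 as higher, where 10.6% and 11.6% of all tested genes were counted so (either way 22.3%). The lower genes were Ccn1, Ccn2 and Ccn3 and the higher ones Ccn4 and Ccn5. At 2 months none was lower and 2 were higher, again Ccn4 and Ccn5, against 4.15% and 5.44% of all genes (either way 9.6%). From 1 week to 2 months Ccn2 was counted as higher and Ccn4 as lower, against 8.86% and 8.31% of genes (either way 17.2%). The median log2 ratio of all genes was 0.02 in each of these comparisons.

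**Figure D1:**
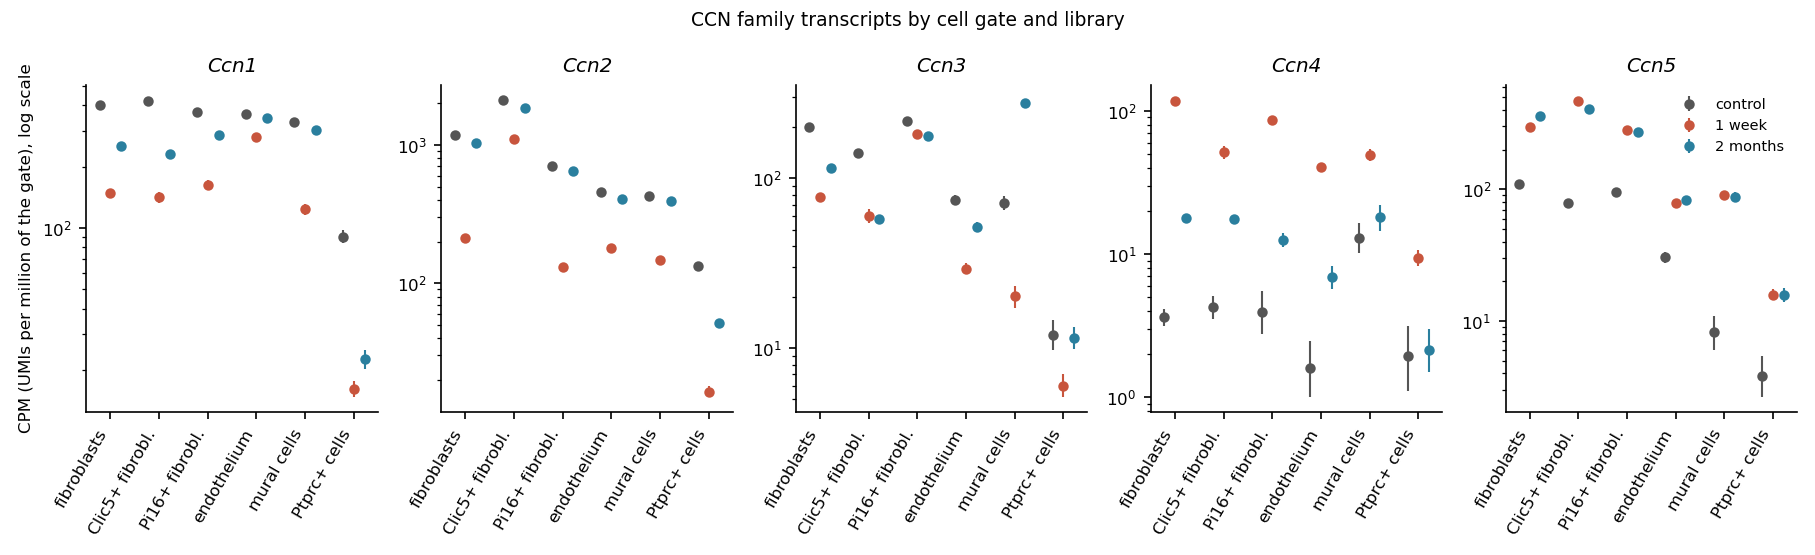
CPM of the 5 CCN genes (log axis) in each cell gate, 1 point per library with its exact 95% counting interval. In fibroblasts the 1-week points of Ccn1, Ccn2 and Ccn3 (147, 212 and 77.9 CPM) lie lowest and that of Ccn4 (118 CPM) highest, while Ccn5 is above the control in both operated libraries.

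Ccn2 (chr10:24595442-24598683, plus strand, GRCm38), the gene of connective tissue growth factor, stood at 1175 CPM (1166 to 1184) in the control fibroblasts. At 1 week it was 212 (209 to 215), and after 2 months 1029 (1023 to 1035). The 1-week library alone was low, 5.55-fold (5.46 to 5.64) below the control, and the 2-month level was 0.875 of the control. Most Ccn2 of the control and 2-month libraries lay in the lining subset, with 57.2% and 67.4% of the Ccn2 UMIs in kept cells. The whole fibroblast gate held 62.4%, 61.9% and 79.6% of those UMIs in control, 1-week and 2-month libraries. Over all kept cells Ccn2 was at 1070, 167 and 812 CPM. Clic5-positive cells held 91.7%, 46.3% and 84.7% of all fibroblast Ccn2 UMIs, in the order control, 1 week and 2 months.

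Much of the 1-week difference in Ccn2 went with the smaller lining subset. Clic5-positive cells were 43.6% of control fibroblasts, 7.92% at 1 week and 33.6% at 2 months. Inside that subset Ccn2 was at 2120, 1108 and 1855 CPM, so the 1-week level was 1.91-fold (1.87 to 1.96) lower, just under the 2-fold limit. With the Clic5 and Pi16 subsets of every library given their control proportions, the 1-week ratio for all fibroblasts was 0.512 in place of 0.180. Cells with Pi16 and no Clic5 had 137, 97.99 and 195 CPM, and cells with neither had 214, 127 and 342. Outside the lining subset the 2-month level was thus above the control. Ptprc-positive cells, used as a gauge of free RNA, had 133, 16.4 and 51.5 CPM of Ccn2. The control level in cells with Pi16 and no Clic5 was close to that gauge. No order of control and 1 week is therefore read from those cells. The whole Pi16-positive gate had 699, 131 and 646 CPM, but 239 control and 293 2-month cells in it also carried Clic5, against 24 at 1 week.

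The share of Clic5-positive cells with a Ccn2 UMI followed another order than the CPM, 75.9%, 82.7% and 92.7%, or 60.8%, 68.6% and 81.3% after thinning every cell to 3000 UMIs. The tenth of cells with the most UMIs held 40.9%, 34.0% and 29.4% of the transcript. No order between libraries is read from these shares. In Ptprc-positive cells, immune cells that serve as a gauge of free RNA, 36.7%, 7.68% and 22.4% had a Ccn2 UMI, at median depths of 9032, 8235 and 8628 UMIs against 15286, 18612.5 and 24024.5 in the Clic5-positive gate.

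**Figure D2:**
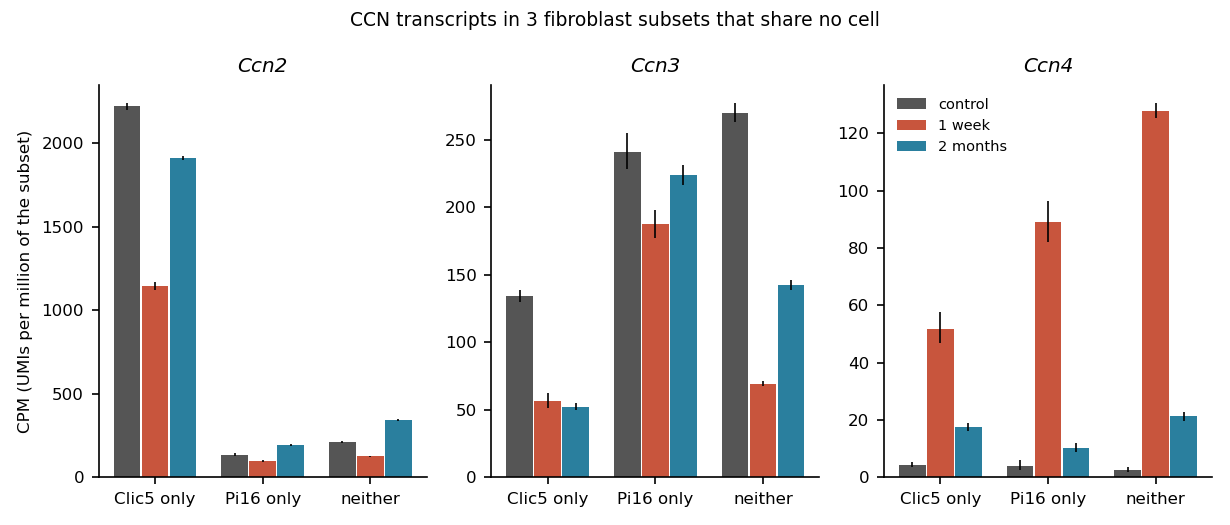
CPM of Ccn2, Ccn3 and Ccn4 in fibroblasts with Clic5 only, with Pi16 only and with neither, as bars per library with exact 95% counting intervals. Ccn2 is concentrated in the Clic5-only cells (2222, 1147 and 1913 CPM), Ccn3 is higher outside them in each library, and Ccn4 at 1 week is highest in cells with neither marker (128 CPM).

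Ccn1 (chr3:145646976-145649981, minus strand), the gene of CYR61 and an immediate-early gene of serum, stretch and YAP signalling, was at 403 CPM (398 to 409) in the control fibroblasts. It was 147 (145 to 150) at 1 week and 254 (251 to 257) after 2 months. The control was highest and the 1-week library lowest, 2.74-fold (2.68 to 2.80) under the control. The Clic5-positive subset gave 420, 141 and 231 CPM and the Pi16-positive subset 373, 162 and 285, so the order was the same in both, with 1-week ratios of 0.335 and 0.434. Unlike Ccn2, Ccn1 was spread over the subsets, and Clic5-positive cells held 53.0% of its control fibroblast UMIs.

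Ccn1 moved with the dissociation genes inside every library. Across cells its Pearson correlation with the dissociation list was 0.34 in control, 0.22 in 1-week and 0.30 in 2-month fibroblasts (3781, 4748 and 5317 cells, which share library and depth), whereas for Ccn2 it was -0.16, -0.05 and -0.28. When fibroblasts of all libraries were split into 5 bins by the share of UMIs in that list, control Ccn1 went from 66.4 CPM in the lowest bin to 626 in the highest, 1-week Ccn1 from 102 to 222 and 2-month Ccn1 from 96.4 to 418.

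The ratio of Ccn1 at 1 week to control therefore depended on the bin. It was 1.54 (1.35 to 1.75) in the lowest bin, then 0.751, 0.493, 0.457 and 0.354 in the highest, so the direction turned in the cells with the least of these transcripts. With the 5 bins weighted equally it was 0.502. The Ccn2 ratio lay between 0.122 and 0.217 in all 5 bins, the Ccn4 ratio between 15.2 and 35.0, and the Ccn5 ratio between 2.02 and 3.48. At 2 months Ccn1 was at 1.45 and 1.05 times the control in the lowest pair of bins and at 0.629 over all fibroblasts. Since the control library held the most dissociation transcripts, group and dissociation response cannot be told apart for the Ccn1 level of the whole gate.

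**Figure D3:**
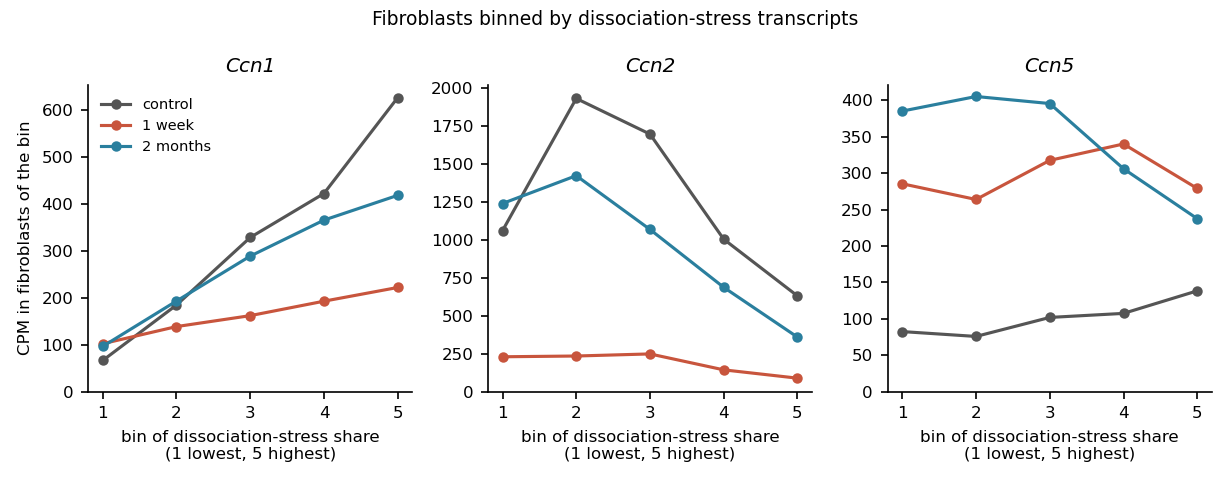
CPM of Ccn1, Ccn2 and Ccn5 in fibroblasts of each library split into 5 bins (x axis, 1 lowest to 5 highest) by the share of UMIs in dissociation-induced genes. Ccn1 climbs with the bin in every library and its libraries cross in the lowest bin, whereas 1-week Ccn2 is under the other two libraries and control Ccn5 under both operated libraries in all 5 bins.

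Ccn3 (chr15:54745702-54754039, plus strand), the gene of NOV, which often opposes CCN2 in cultured cells, was at 202 CPM (198 to 205), 77.9 (76.0 to 79.8) and 116 (114 to 118) in control, 1-week and 2-month fibroblasts. Both operated libraries were lower, by 2.59-fold (2.51 to 2.67) and 1.74-fold (1.70 to 1.79). Unlike Ccn2, it was lowest in the lining subset. Cells with Clic5 only had 134, 56.5 and 52.4 CPM, cells with Pi16 only 241, 187 and 224, and cells with neither 270, 69.4 and 142.

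In the Pi16-positive gate Ccn3 kept most of its level, at 217, 182 and 177 CPM (ratios 0.837 and 0.817 to control). In the Clic5-positive gate it was 2.35-fold and 2.45-fold lower at 1 week and 2 months. Across control fibroblasts Ccn2 and Ccn3 correlated at -0.29, across 1-week cells at -0.04 and across 2-month cells at -0.19. The 1-week Ccn3 ratio also differed by dissociation bin, from 0.240 in the second to 0.933 in the highest of the 5.

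Ccn4 (chr15:66891320-66923201, plus strand), the gene of WISP1, found as a Wnt1-induced gene, had the largest ratio of the 9 genes in fibroblasts. It was at 3.61 CPM (3.12 to 4.15) for the control. It was 118 (116 to 120) at 1 week and 17.8 (16.9 to 18.6) after 2 months, from 195, 10079 and 1733 UMIs. The 1-week level was 32.7-fold (28.4 to 37.9) and the 2-month level 4.92-fold (4.24 to 5.73) that of the control, and 2 months was 6.65-fold below 1 week. Cells with a UMI were 3.99%, 66.9% and 18.4% of fibroblasts, and 0.878%, 25.7% and 4.03% after thinning, against 1.12%, 4.36% and 1.30% of Ptprc-positive cells (thinned 0.331%, 1.73% and 0.402%). Median depths were 13153, 16492 and 16085 UMIs in fibroblasts. All 3 thinned fibroblast shares were above those of the Ptprc-positive cells, by the least in the control.

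Ccn4 was higher at 1 week in every fibroblast subset, and highest outside the Clic5 and Pi16 cells. The Clic5-positive gate had 4.26, 51.5 and 17.6 CPM and the Pi16-positive gate 3.96, 85.9 and 12.6. Fibroblasts with Acan, 2465 at 1 week, had 142 CPM of Ccn4, and fibroblasts without it had 3.59, 88.6 and 16.0 CPM in control, 1-week and 2-month libraries, so the 1-week ratio was 24.7 without the Acan-positive cells. Among 1-week fibroblasts with 5 or more UMIs of Acta2, a myofibroblast gene, Ccn4 reached 186 CPM (699 cells), against 7.22 CPM in 110 such control cells and 32.4 in 161 at 2 months.

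Ccn5 (chr2:163820861-163833146, plus strand), the gene of WISP2, which lacks the C-terminal module of the other CCN proteins, was at 109 CPM (106 to 112) in control fibroblasts. It was 294 (291 to 298) at 1 week and 358 (354 to 362) after 2 months. Both operated libraries were above the control, by 2.70-fold (2.62 to 2.77) and 3.28-fold (3.19 to 3.37), and the 2-month level was 1.22 times that at 1 week. Cells with a UMI were 34.2%, 67.2% and 62.8% of fibroblasts (thinned 18.3%, 39.4% and 39.3%), against 3.03%, 8.76% and 9.62% of Ptprc-positive cells.

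Ccn5 differed more in the Clic5-positive than in the Pi16-positive subset. In Clic5-positive cells it was at 78.1, 465 and 410 CPM, a ratio of 5.96 (5.65 to 6.29) at 1 week and 5.25 (5.02 to 5.49) at 2 months. Pi16-positive cells had 96.1, 282 and 271 CPM, a ratio of 2.93 and 2.82. At 1 week the Acan-positive fibroblasts had less Ccn5 than the Acan-negative ones, 202 against 408 CPM, the opposite of Ccn4.

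Counts in the subsets differed in part from those of the whole gate. Ccn2 was not counted at 1 week in Clic5-positive cells, where Ccn3 was counted as lower at 2 months too, and Ccn3 was not counted at 1 week in Pi16-positive cells. In Clic5-positive fibroblasts 2 members were counted as higher and 2 as lower at 1 week (5.88% and 8.05% of all genes, either way 13.9%), 2 higher and 1 lower at 2 months (3.97% and 6.6%, either way 10.6%), and 1 lower from 1 week to 2 months (4.91%, either way 8.88%). In Pi16-positive fibroblasts the counts were 2 higher and 2 lower at 1 week (8.17% and 6.95%, either way 15.1%), 2 higher and none lower at 2 months (5.06% and 2.12%, either way 7.18%), and 1 each way from 1 week to 2 months (6.85% higher and 4.96% lower, either way 11.8%). Ccn4 and Ccn5 made up all the higher counts against the control in both subsets.

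**Figure D4:**
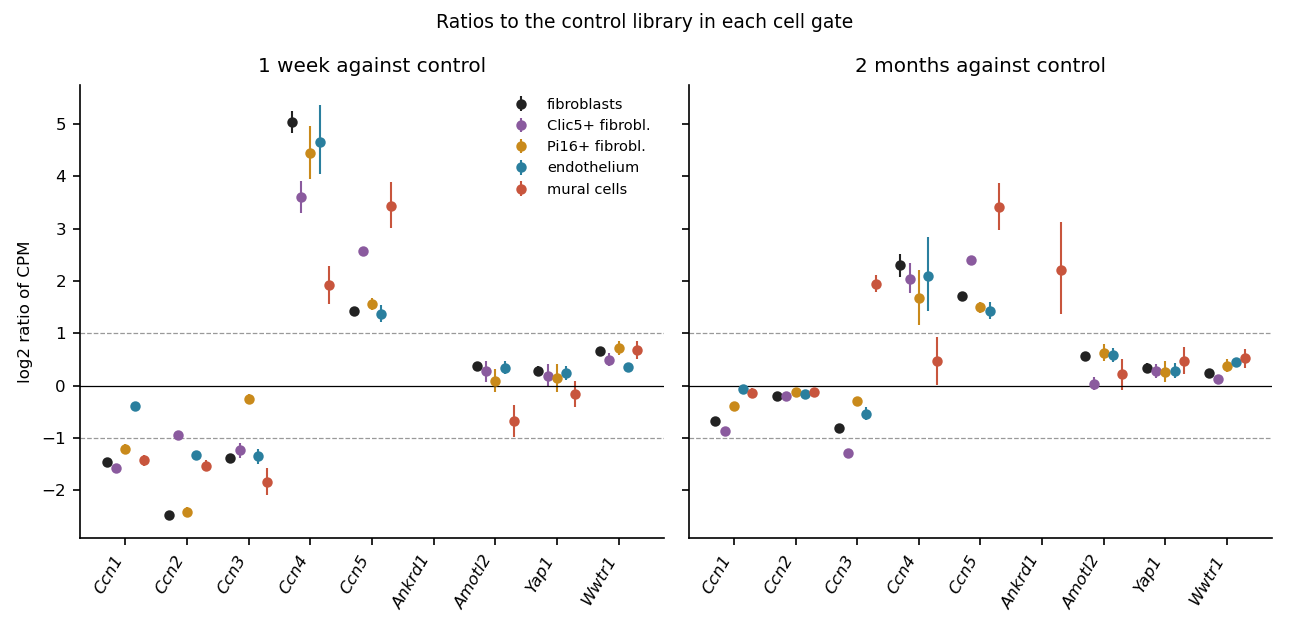
Log2 CPM ratio to the control for each gene in 5 cell gates, at 1 week and at 2 months, with exact 95% counting intervals and dashed lines at 2-fold. Points are drawn where the 2 sums held at least 50 UMIs, so Ankrd1 appears only for mural cells at 2 months (ratio 4.60), and Yap1, Wwtr1 and Amotl2 stay inside the dashed lines in these 5 gates.

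Neither coactivator gene reached 2-fold over the whole of any fibroblast, endothelial or mural gate. Yap1 (chr9:7931999-8004596, minus strand) was at 27.8 CPM (26.4 to 29.2), 33.9 (32.6 to 35.1) and 35.3 (34.1 to 36.5) in control, 1-week and 2-month fibroblasts. Its ratios to control, 1.22 and 1.27, and those in the fibroblast subsets, endothelium and mural cells, 0.896 to 1.39, were all under 2-fold. Wwtr1 (chr3:57455649-57575910, minus strand) was at 84.4 CPM (82.0 to 86.9), 134 (132 to 137) and 100 (98.3 to 102), highest at 1 week at 1.59-fold (1.54 to 1.65) the control. By dissociation bin the 1-week Wwtr1 ratio in fibroblasts went from 1.07 in the lowest to 2.16 (1.99 to 2.35) in the highest.

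By cell type, both coactivators were highest in endothelium. Wwtr1 was at 243, 312 and 334 CPM there, against 76.6, 123 and 110 in mural cells and 7.94, 12.5 and 4.59 in Ptprc-positive cells. Its levels in mural cells and in fibroblasts lay close together in each library. Yap1 was at 48.3, 57.2 and 59.1 CPM in endothelium and 40.3, 36.1 and 56.1 in mural cells. The intervals of the 2-month endothelial and mural values overlapped (55.6 to 62.7 and 49.9 to 62.9). In Ptprc-positive cells Yap1 was at 2.92 to 3.61 CPM, the lowest of the gates. Wwtr1 in those cells was 2.72-fold lower at 2 months than at 1 week.

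**Figure D5:**
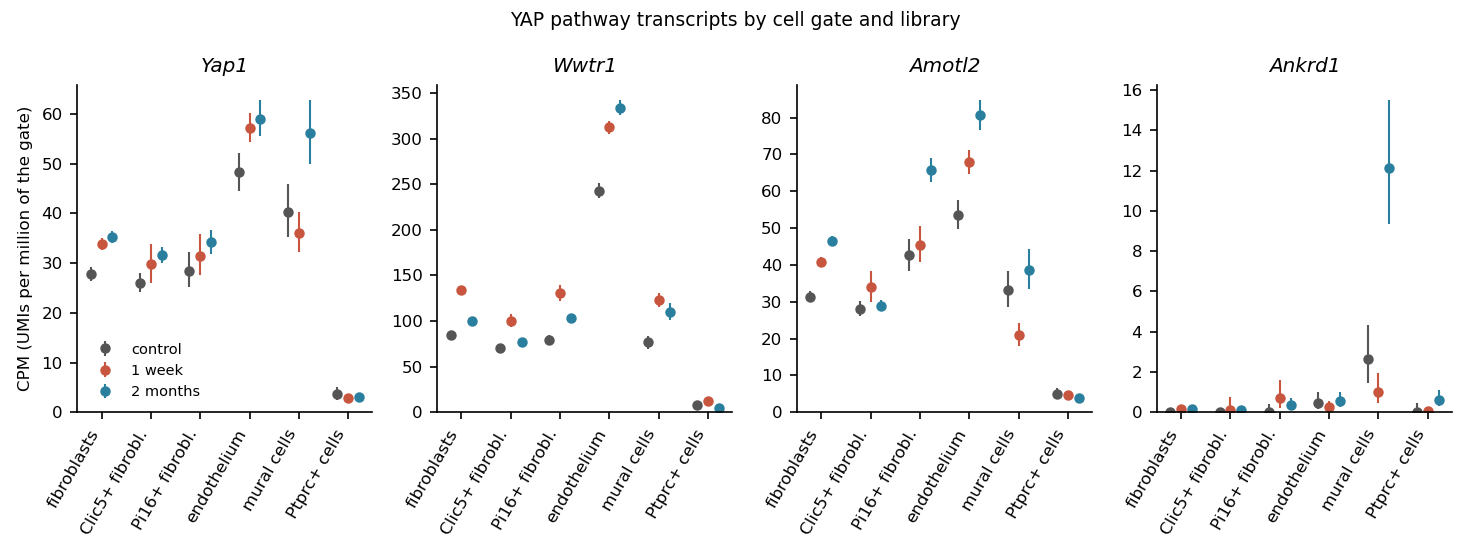
CPM of Yap1, Wwtr1, Amotl2 and Ankrd1 in each cell gate, 1 point per library with its exact 95% counting interval. Wwtr1 and Amotl2 are highest in endothelium, at up to 334 and 80.6 CPM, and Ankrd1 lies above 3 CPM only in mural cells of the 2-month library (12.1 CPM).

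In fibroblasts and endothelium Amotl2 did not follow the order of Ccn1 and Ccn2, while in mural cells it was lowest at 1 week as they were. Amotl2 (chr9:102716672-102733418, plus strand) encodes a junction scaffold that binds YAP and is itself a target, and was at 31.3 CPM (29.9 to 32.9), 40.7 (39.3 to 42.1) and 46.4 (45.0 to 47.7) in fibroblasts. It was higher in both operated libraries, at 1.30 and 1.48 times the control. Endothelium showed the same order at 53.5, 67.9 and 80.6 CPM. In fibroblasts the 2-month Amotl2 ratio was 2.11 (1.90 to 2.35) in the highest dissociation bin and 1.45 to 1.78 in the others. Clic5-positive fibroblasts had 28.2, 34.0 and 28.9 CPM and Pi16-positive ones 42.6, 45.5 and 65.7, so the 2-month rank differed between the subsets. Among the fibroblast, endothelial and mural gates, mural cells alone had less Amotl2 at 1 week than in the control, 20.9 against 33.3 CPM.

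Ankrd1 (chr19:36111961-36120099, minus strand), the gene of a stretch-responsive ankyrin-repeat protein of muscle, was nearly undetected in fibroblasts, with 0, 15 and 18 UMIs. Cells with a UMI were 0 of 3781 in the control (exact 95% upper bound 0.0975%), 9 at 1 week and 8 at 2 months. These were too few for the 50-UMI rule. Ptprc-positive cells with a UMI numbered 0, 2 and 5, or 0.310% of them at 2 months against 0.150% of fibroblasts. The 2-month fibroblast UMIs were not spread evenly: fibroblasts with 5 or more UMIs of Acta2 held 17 of the 18, in 7 of 161 cells (4.35%, 1.77 to 8.75). The same subset held 9 of the 15 UMIs at 1 week, in 5 of 699 cells, and none in 110 control cells. Its median depth at 2 months was 23673 UMIs, against 16085 in all fibroblasts, and called doublets stayed in. The part of mural transcripts in these cells was not tested.

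Mural cells held most of the Ankrd1 transcripts of the control and 2-month libraries, 71.4% and 62.1% of the UMIs in kept cells. Its mural level was 2.64 CPM (1.48 to 4.36), 1.03 (0.469 to 1.95) and 12.1 (9.35 to 15.5), from 15, 9 and 64 UMIs. The 2-month library was highest, at 4.60-fold (2.59 to 8.69) the control and 11.8-fold (5.86 to 27.0) the 1-week level. It rested on 23 of 423 cells (5.44%), against 0.310% of Ptprc-positive cells, with 1 cell holding 13 UMIs. Among the 75 mural cells of that library with no UMI of Pdgfra, Dcn or Lum, only 1 Ankrd1 UMI was found.

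In mural cells 2 members were counted as higher and 3 as lower at 1 week (13.1% and 11.7% of all genes, either way 24.9%), 3 higher and none lower at 2 months (4.96% and 3.39%, either way 8.36%), and 4 higher and 1 lower from 1 week to 2 months (8.19% and 7.79%, either way 16%). Ccn3 stood out. It was at 71.8 CPM (65.0 to 79.1) for control mural cells. It was 20.2 (17.3 to 23.4) at 1 week and 277 (263 to 292) after 2 months. The 2-month level was 3.86-fold (3.46 to 4.32) above the control, whereas in all 3 fibroblast gates and in endothelium it was below it.

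The share of mural cells with a Ccn3 UMI was 17.0%, 11.5% and 47.3%, and 9.93%, 4.76% and 30.4% after thinning, against 5.83%, 3.39% and 3.91% of Ptprc-positive cells (thinned 2.40%, 1.35% and 1.67%). Median depths were 7956, 11025 and 11252 UMIs in mural cells. In mural cells with the smooth muscle myosin gene Myh11 the levels were 73.7, 17.0 and 296 CPM. Mural cells with no UMI of the fibroblast genes Pdgfra, Dcn and Lum, 130, 92 and 75 cells, gave 72.6, 11.1 and 252 CPM and a 2-month ratio of 3.47 (2.60 to 4.66).

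Ccn1 and Ccn2 in mural cells followed the order seen in fibroblasts. Ccn1 was at 331, 123 and 302 CPM and Ccn2 at 426, 148 and 391, both lowest at 1 week, by 2.69-fold and 2.88-fold. In the cells with no fibroblast UMIs the 1-week ratios were 0.403 for Ccn1 and 0.284 for Ccn2, and Ccn2 at 2 months was 1.99 times (1.63 to 2.42) the control, where the whole gate gave 0.917. Ccn5 was at 8.27, 89.7 and 87.8 CPM, a ratio of 10.8 and 10.6. Ccn4 was at 13.0, 49.2 and 18.0 CPM, a 1-week ratio of 3.78 (2.95 to 4.91).

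Fibroblast markers were higher in the mural gate too, with 4 of 6 measured counted as higher at 1 week and 2 of 6 at 2 months. Of all mural genes, 13.1% and 4.96% were higher. None of the markers was counted as lower, against 11.7% and 3.39% of all genes. Their median log2 ratio at 2 months was 0.73, against -0.01 for all genes. Fibroblast markers summed to 2123, 10039 and 2733 CPM in the mural gate and lining markers to 10040, 741 and 4197, while mural markers stood at 4912, 7511 and 7170. In the mural cells with no UMI of Pdgfra, Dcn or Lum, Ccn4 was at 14.1, 13.5 and 18.2 CPM, a 1-week ratio of 0.960 (0.390 to 2.32), so the higher 1-week level was not seen there. Ccn5 was at 2.17, 3.69 and 51.7 CPM from 2, 3 and 37 UMIs, too few at 1 week to read (ratio 1.70, 0.195 to 20.4). At 2 months its ratio in those cells was 23.9 (6.16 to 204), under the 50-UMI rule. The part of fibroblast transcripts in the mural Ccn5 values was not tested further.

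In endothelium 2 members were counted as higher and 2 as lower at 1 week (7.7% and 8.38% of all genes, either way 16.1%), 2 higher and none lower at 2 months (3.72% and 2.82%, either way 6.55%), and 1 each way from 1 week to 2 months (6.93% higher and 5.21% lower, either way 12.1%). Both 2-month calls were lost in 1 setting each: the Ccn4 ratio was 1.86 with cells weighted equally, and the Ccn5 ratio 1.39 in cells with no fibroblast UMIs. The 1-week Ccn5 ratio was 1.99 with the dissociation bins weighted equally. Ccn1 was at 364, 280 and 347 CPM, the smallest 1-week difference of any gate (ratio 0.769). Dissociation transcripts there summed to 26604, 13166 and 20146 CPM. Equal weighting of the dissociation bins was run on all 81 member ratios to control. Apart from that setting, the part of these transcripts in endothelial Ccn1 was not tested. Ccn2 was at 454, 181 and 407 CPM, Ccn3 at 75.0, 29.5 and 51.9, Ccn4 at 1.61, 40.7 and 6.87, and Ccn5 at 30.4, 79.0 and 82.2.

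Endothelial Ccn2, Ccn3, Ccn4 and Ccn5 were lower in cells with no UMI of the fibroblast genes Pdgfra, Dcn and Lum than in the whole gate. Fibroblast markers summed to 5952, 11552 and 4790 CPM in the gate and lining markers to 14395, 3108 and 11640. The 189, 227 and 156 cells with no UMI of Pdgfra, Dcn or Lum had 188, 155 and 167 CPM of Ccn2, a 1-week ratio of 0.823 (0.699 to 0.971) in place of 0.398. In them Ccn4 was at 0, 4.44 and 0.636 CPM, from 0, 10 and 1 UMIs, and Ccn5 at 3.66, 8.44 and 5.09 CPM. Ccn1 was at 347, 330 and 305 CPM and Ccn3 at 46.1, 18.6 and 28.0, with a 1-week Ccn3 ratio of 0.404 close to the 0.393 of the whole gate.

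The shares of all fibroblast genes to set beside the list counts that follow are 11.6% higher and 10.6% lower at 1 week and 5.44% and 4.15% at 2 months, with a median log2 ratio of 0.02. The upstream pathway was read from a list of 17 Hippo genes, the kinases and scaffolds that restrain YAP and TAZ. In fibroblasts 17 of 17 were measured and 1 was counted as higher and none as lower at 1 week and at 2 months, with medians of 0.10 and 0.30 on the log2 scale. That gene was Wwc1, which encodes the scaffold KIBRA, at 0.185, 0.621 and 0.717 CPM. Of 5 measured TEAD and VGLL genes, the DNA-binding partners and cofactors, 3 were higher at 1 week (median log2 ratio 1.09) and 1 at 2 months. Vgll3 was at 9.42, 32.0 and 19.1 CPM and Tead2 at 4.15, 13.7 and 3.88 CPM.

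Of 19 other YAP target genes, 4 were higher and 1 lower at 1 week, with a median log2 ratio of 0.32, and 1 was higher at 2 months. The higher genes led with Nt5e, the ecto-nucleotidase CD73, at 9.68, 66.0 and 44.3 CPM, and Dock5, a Rac activator, at 1.41, 7.01 and 2.78. The lower gene was the receptor kinase gene Axl, at 299, 122 and 260 CPM. In mural cells 5 of 17 measured were higher at 1 week and 4 of 16 at 2 months, with none lower, against 13.1% and 4.96% of all genes higher. Fibroblast markers in the mural gate summed to 2123, 10039 and 2733 CPM, and their part in these mural counts was not tested. Summed over the list, fibroblast levels were 1893, 1455 and 1699 CPM.

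CCN proteins act through integrins, syndecans and other surface receptors, and 13 of 14 listed receptor genes were measured in fibroblasts. At 1 week 2 were higher (11.6% of all genes) and 3 lower (10.6%), and at 2 months none was counted either way. Notch1, which binds CCN3, was at 10.0, 23.1 and 5.77 CPM and Itga5, the fibronectin receptor subunit, at 37.5, 76.8 and 45.5. Itga6, a laminin receptor subunit that is also a lining marker, was at 44.4, 11.8 and 71.9 CPM, and Sdc4, the syndecan-4 gene, at 487, 235 and 276.

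Lists of other inputs to these genes gave mixed counts in fibroblasts, where 11.6% of all genes were higher and 10.6% lower at 1 week, and 5.44% and 4.15% at 2 months. Of 10 TGF-beta response genes 3 were higher at 1 week and 2 at 2 months, with none lower, among them Col1a1 at 2911, 14344 and 3537 CPM and Pmepa1, a feedback inhibitor of SMAD signalling, at 291, 791 and 675. Of 7 measured Wnt response genes 2 were lower at 1 week and 1 at 2 months, and none higher. The Wnt inhibitor gene Nkd1 was at 16.6, 3.64 and 4.32 CPM and Tcf7, a Wnt transcription factor gene, at 4.91, 2.27 and 6.04. Of 15 SRF and actin genes 3 were higher and 1 lower at 1 week and 1 each way at 2 months, with Cnn2, a calponin gene, at 21.5, 90.02 and 44.2 CPM, Tpm2, a tropomyosin gene, at 120, 282 and 112, and Lmod1, a leiomodin gene, at 14.5, 1.94 and 9.30. The lower gene at 2 months was Myl9, a myosin light chain gene, at 118, 80.5 and 52.2 CPM. In mural cells 8 of the 15 were lower at 1 week, against 11.7% of all genes, the list summing to 59776, 19532 and 43938 CPM. Cells with Myh11 were 636 of 694, 490 of 711 and 387 of 423 mural cells, and the part of that shift and of the fibroblast transcripts in these values was not tested.

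Among themselves the 9 genes formed no pattern common to all. Over the 9 fibroblast sums (3 subsets in 3 libraries, which share libraries), Ccn1 and Ccn4 had a Pearson correlation of -0.96. It was -0.78 for Ccn1 and Ccn5, -0.57 for Ccn2 and Ccn3, and 0.70 for Ccn4 and Ccn5. Yap1, Wwtr1 and Amotl2 correlated positively with one another, at 0.65 for Yap1 and Wwtr1, 0.74 for Amotl2 and Yap1 and 0.63 for Amotl2 and Wwtr1. Over 15 sums that add endothelium and mural cells, the genes most like Ccn2 were Eef1a2 (0.98), Zfhx2 (0.96) and S100a1 (0.96), and those most like Ccn4 were Pdap1 (0.96), Acan (0.96) and Col12a1 (0.95). For Ccn5 they were Adgra3 (0.95), Fap (0.95) and Fndc3b (0.94), for Ccn1 they included Tusc2 (0.92) and Cltb (0.92), and for Ccn3 Aldh1a1, Fgd4 and Dapk1 (0.89 to 0.88). Wwtr1 went with Nfat5 (0.99), Efna1 (0.97) and Smad1 (0.97), Yap1 with Hipk1, Rad54l2 and Zfp281 (each 0.96), Amotl2 with Atf7, Zfp292 and Abca1 (0.90 to 0.87), and Ankrd1 with Mtus2, Slmap and Calcoco1 (each 0.91). Over the 9 fibroblast sums alone the correlations of Ankrd1 with these 3 genes were -0.37, 0.37 and 0.63, so its likeness rests on the endothelial and mural sums.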

How the data were processed

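The deposited files of 3 libraries held whole-number UMI counts for each gene in each barcode, without normalisation. They were written by Cell Ranger 5.0.0 (control, 1 week) and 5.0.1 (2 months), per the file headers, whereas the submitters' processing notes name 6.0.1 and build mm10. Files held 96782789, 179561680 and 159333121 UMIs (control, 1 week, 2 months), and fibroblast sums 54007158, 85401321 and 97612131.

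A barcode was kept with 500 or more genes and no more than 10% of its UMIs mitochondrial. Doublets called by Scrublet (scanpy 1.11.5; 4.22%, 4.43% and 4.90% of cells) stayed in and were removed in an alternative. Gates were set on raw UMIs, counts were summed per gate and library, and 18.1%, 17.0% and 13.0% of cells fell in no gate. Intervals are exact at 95%: Poisson for CPM, Clopper-Pearson for shares, conditional binomial for ratios. Thinned shares are expected values at 3000 UMIs, without shallower cells. Likeness is the Pearson correlation of log2(CPM + 1) among genes reaching 20 CPM. Per-cell correlations used log2(CPM + 100). Python 3.11.15, numpy 2.4.6, scipy 1.17.1 and pandas 2.3.3 were used, and the ratio procedure was tested on simulated data.

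Members and gene lists were chosen with earlier results of these data known. All members are named, with the 3 genes most like each and, from each list, up to 2 genes each way with the highest and lowest called ratios in fibroblasts. One gene that this rule names is not reported here. Alternatives changed gates, cell filter, doublets, weights, scaling, free RNA, dissociation bins, fold and UMI limits. Cells with 0 UMIs of Pdgfra, Dcn and Lum, fibroblasts with 0 UMIs of Acan and ratios within each dissociation bin were added after seeing the data. Gene positions are from GENCODE vM21.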

Additional observations from a re-analysis of the deposited data

Results flagged for a closer look

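Ccn3 differed from the control in opposite directions in 2 gates at 2 months. In Clic5-positive fibroblasts its ratio was 0.408 (0.388 to 0.429), from 141 to 57.5 CPM, and in mural cells it was 3.86 (3.46 to 4.32), from 71.8 to 277 CPM. The difference between the gates was not tested, since each group was 1 library, and the same libraries gave both values. The dissociation list summed to 16143 and 9996 CPM in control and 2-month Clic5-positive fibroblasts and to 15692 and 19338 CPM in mural cells, and with 5 bins of that list weighted equally the ratios were 0.433 and 3.48. In mural cells with no UMI of Pdgfra, Dcn or Lum the ratio was 3.47.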

How the results depend on the processing

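The 81 member ratios to control were recomputed under 15 settings, 709 values in all. Of 34 called ratios 10 fell under 2-fold in at least 1 setting, and 44 values moved by over 1.5 times. In 2 cases a called ratio crossed 1. Ccn1 in fibroblasts at 1 week was 1.54 (1.35 to 1.75) in the lowest dissociation bin. Ccn4 in mural cells at 1 week was 0.960 (0.390 to 2.32) with 0 UMIs of Pdgfra, Dcn and Lum. That Ccn4 value came from 11 and 13 UMIs and its interval spans 1, so no direction is read from it. Ccn2 in fibroblasts at 1 week was 0.512 at the control mix and Ccn1 0.502 with bins weighted equally. In endothelium Ccn2 at 1 week was 0.620 with 2 UMIs of Cdh5, 0.506 with cells weighted equally and 0.512 with free RNA subtracted. The endothelial Ccn4 ratio at 2 months was 1.86 with cells weighted equally. The endothelial Ccn5 ratio at 2 months was 1.39 with no fibroblast UMIs, from 8 and 5 UMIs (0.401 to 5.40). Endothelial Ccn5 at 1 week was 1.99 with bins weighted equally, and in Pi16-positive cells Ccn1 at 1 week was 0.516 to 0.536 in 3 settings. Ccn3 in fibroblasts at 1 week was 0.933 and Ccn5 at 2 months 1.72 in the highest bin. With free RNA subtracted, Ccn4 in fibroblasts was 64.4 times the control at 1 week and 9.26 at 2 months, and in Pi16-positive cells gated at 2 UMIs it was 70.1 and 12.1 times. The causes were not tested.

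Counts of members apart by 2-fold moved as follows. The shares of all genes counted under these altered settings are not given, so no result about the members is read from these counts. At a 1.5-fold limit they were 4 (main 2) for fibroblasts at 2 months and 3 (main 1) for Clic5-positive fibroblasts from 1 week to 2 months, which a gate at 2 UMIs made 0. At the control mix, fibroblasts from 1 week to 2 months gave 1 (main 2). Endothelium with cells weighted equally gave 1 (main 2) at 2 months against control and against 1 week. Cells with no UMI of Pdgfra, Dcn or Lum gave 1 (main 4), 0 (main 2) and 0 (main 2) in endothelium and 3 (main 5), 1 (main 3) and 3 (main 5) in mural cells, in the order 1 week and 2 months against control and 2 months against 1 week, with far fewer cells and UMIs. No paired analysis was possible because each group was 1 library. The spread between mice is unknown, and intervals cover counting error only.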
